A study of Ovis aries with 6 samples.

Results

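The core circadian clock genes are the transcription factors and repressors that form the molecular oscillator found in most mammalian cells. Of the 10 names taken as this gene set, 8 stood in the table of 24390 genes and are described here (ARNTL, CLOCK, PER3, CRY1, CRY2, NR1D1, NR1D2 and DBP), matched by gene name with any bracketed location removed. PER1 and PER2 were not analysed here. Transcripts were counted by RNA sequencing of fat from around the kidney (perirenal adipose tissue) of wild-type, pure-bred Merino sheep, given as untreated. There were 3 lambs and 3 fetuses, described by the labels as biological replicates. The fetuses were taken at day 132 of a gestation with term at 150 days. The lambs were reared with their ewes until weaning, and the labels give their age as 80 days after birth, as 89 days (with a spread of 7 days) and as 12 weeks. The letters VEH stand in every lamb title and in no fetal title, and are not explained in the labels. Whether they mark some handling of the lambs is not known, and anything they mark cannot be told apart from stage. The hour of tissue collection is also not given in the labels, so a difference between stages and a difference in time of day cannot be told apart.

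The clock works as a feedback loop. CLOCK and ARNTL (also called BMAL1) form a heterodimer that activates the PER, CRY, NR1D and DBP genes through E-box elements. PER and CRY proteins then repress that heterodimer, while the REV-ERB receptors encoded by NR1D1 and NR1D2 repress ARNTL and compete with the ROR receptors, which activate it. In adult mouse and human fat many of these transcripts, though not all to the same degree, cycle over the day, with ARNTL near opposite phase to NR1D1 and DBP.

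The lamb libraries held 15907128 to 17263780 counts and the fetal libraries 17535892 to 19150428. The 8 clock genes together took 0.0166 to 0.0179% of the counts in lamb libraries and 0.0121 to 0.0153% in fetal libraries. Genes of the mitochondrial genome took 7.37 to 8.29% in lamb and 27.5 to 40.7% in fetal libraries. These shares are of raw library totals, without the scaling used below. They are therefore not a comparison of clock gene levels between the stages. Values below are CPM, read counts relative to a library size scaled by TMM (trimmed mean of M values), and differences are log2 values, lamb minus fetal, ± SE from edgeR. A gene is called at a Benjamini-Hochberg adjusted p under 0.05 over all 13624 genes tested. Both stages carried fat markers. UCP1, which uncouples respiration to make heat in brown fat, was at 476 ± 77.2 CPM in lambs and 1633 ± 530 CPM in fetuses (SD, n = 3 each). ADIPOQ, the adipocyte hormone adiponectin, was at 17311 ± 3171 CPM in lambs and 10496 ± 1240 CPM in fetuses.

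All 8 clock genes passed the filter on low counts, and 3 of them (37.5%) differed between the stages. PER3 was higher in lambs, against a background of 22.0% of all genes called higher. CRY2 and NR1D1 were lower in lambs, against 22.7% called lower. The share called among the 8 lay near the background, since 44.7% of all genes tested were called. The stages did not overlap for the same 3 genes, against 57.7% of all genes tested. The median log2 difference of the 8 genes was 0.06, against -0.01 for all genes tested, and their median absolute difference was 0.29, against 0.52. In the authors' deposited table the same 3 genes passed an adjusted p of 0.05, where 22.3% of all 24390 genes did. That share also counts the genes that the filter used here left out, so it is not comparable with the 44.7%.

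**Figure D1:**
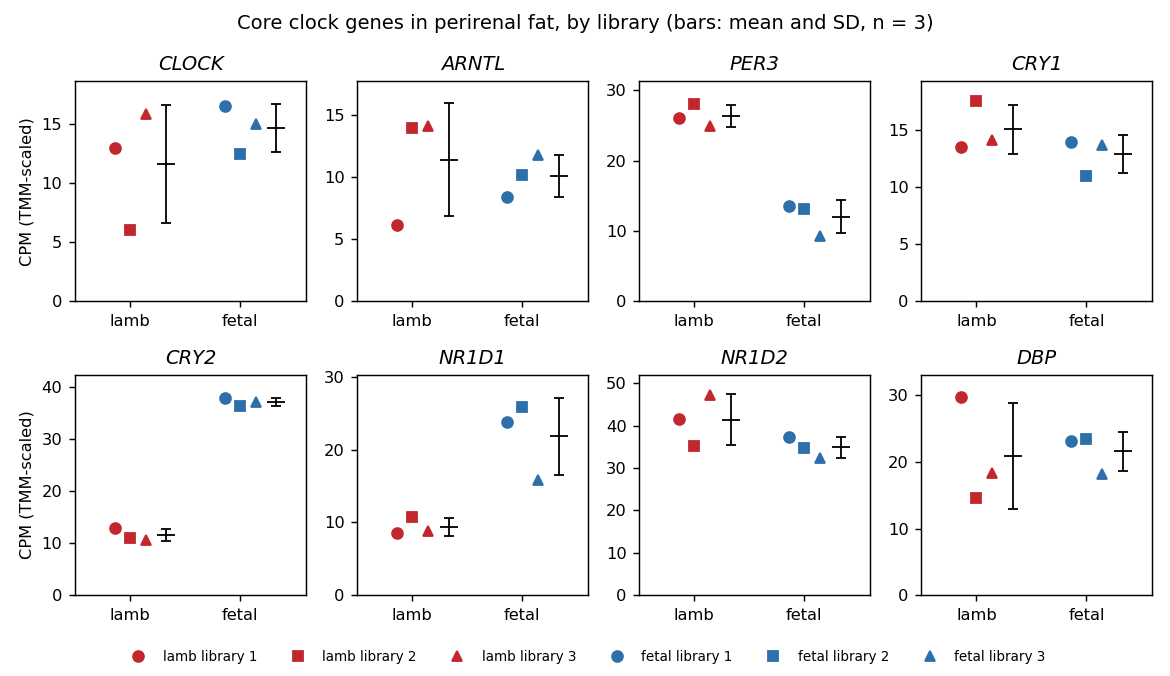
TMM-scaled CPM (vertical axes, each from 0) of the 8 core clock genes in the 3 lamb libraries (red) and the 3 fetal libraries (blue), with symbols by library number and bars for the mean and SD. PER3 lies higher in every lamb library, CRY2 and NR1D1 lie lower, and the other 5 genes overlap between the stages.

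Neither activator of the loop was called. ARNTL (ENSOARG00000007809, chromosome 15, 38890197 to 38925292 on Oar v3.1) was at 6.13, 13.9 and 14.1 CPM in lamb libraries 1, 2 and 3, against 8.37, 10.2 and 11.8 CPM in fetal libraries 1, 2 and 3. Lamb library 1 was the lowest of all 6 and the other 2 lambs were the highest, so the stages overlapped. The log2 difference was 0.17 ± 0.32 (95% interval -0.56 to 0.91, edgeR adjusted p = 0.684). CLOCK (ENSOARG00000001602, chromosome 6, 70873036 to 70987644), a histone acetyltransferase as well as the partner of ARNTL, was at 12.9, 6.07 and 15.8 CPM in lambs and 16.6, 12.5 and 15.0 CPM in fetuses. Here lamb library 2 was the lowest, at 117 counts. The log2 difference of CLOCK was -0.34 ± 0.32 (95% interval -1.08 to 0.41, adjusted p = 0.421), and it was 0.11 when libraries were scaled by their totals alone.

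The period gene was higher in lambs. PER3 (ENSOARG00000010374, chromosome 12, 43655052 to 43723214), a repressor with a smaller part in mouse rhythm than its paralogues, was at 26.1, 28.1 and 25.0 CPM in lambs, against 13.6, 13.2 and 9.31 CPM in fetuses. All 3 lambs lay above all 3 fetuses, and the lambs were close together, with a coefficient of variation of 5.91% against 19.6% in fetuses. PER3 rose 2.20-fold (26.4 ± 1.56 CPM in lambs, 12.0 ± 2.35 CPM in fetuses; SD, n = 3 each). The log2 difference was 1.14 ± 0.17 (edgeR adjusted p = 0.00136). Among the 3002 genes called higher, 38.1% had a larger difference than PER3.

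Of the cryptochrome pair, whose proteins bind and silence CLOCK and ARNTL, CRY2 was called and CRY1 was not. CRY2 (ENSOARG00000002386, chromosome 15, 74106272 to 74130609) was at 12.8, 11.1 and 10.6 CPM in lambs, against 37.8, 36.3 and 37.1 CPM in fetuses. The fetal values spanned only a 1.04-fold range and the lamb values a 1.21-fold range, with a wide gap between the stages. CRY2 fell 3.22-fold (11.5 ± 1.17 CPM in lambs, 37.1 ± 0.751 CPM in fetuses; SD, n = 3 each), a log2 difference of -1.69 ± 0.12 (edgeR adjusted p = 8.87e-05). Of all 13624 genes tested, 147 had a smaller adjusted p than CRY2. Its own neighbours on chromosome 15 in the table were SLC35C1, with a log2 difference of -1.07, and MAPK8IP1, at -0.69 and not called.

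CRY1 (ENSOARG00000017816, chromosome 3, 175346821 to 175432659) was at 13.5, 17.5 and 14.1 CPM in lambs and 13.99, 11.0 and 13.7 CPM in fetuses. These ranges overlapped, with lamb library 2 the highest and fetal library 2 the lowest. The log2 difference was 0.22 ± 0.16 (95% interval -0.15 to 0.60, adjusted p = 0.294), and 0.69 (adjusted p = 0.0303) when scaled by library totals. The log2 ratio of CRY2 to CRY1 within each library was -0.07, -0.66 and -0.41 in lambs, against 1.43, 1.72 and 1.43 in fetuses. That ratio was lower in every lamb, with a mean difference of -1.91 (exact permutation, two-sided p = 0.1, the smallest possible with 3 libraries a stage). The ratio was chosen after its values were seen.

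Of the REV-ERB pair, NR1D1 was called and NR1D2 was not. NR1D1 (ENSOARG00000013027, chromosome 11, 39970553 to 39977351), which encodes REV-ERB alpha and is also an adipogenic factor in mouse preadipocytes, was at 8.50, 10.8 and 8.80 CPM in lambs, against 23.8, 25.9 and 15.9 CPM in fetuses. All lambs lay below all fetuses, and fetal library 3 was nearest to them. NR1D1 fell 2.33-fold (9.36 ± 1.25 CPM in lambs, 21.9 ± 5.28 CPM in fetuses; SD, n = 3 each). The log2 difference was -1.22 ± 0.21 (edgeR adjusted p = 0.00274), and -0.72 when libraries were scaled by their totals alone.

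The gene model of NR1D1 overlaps that of THRA, the thyroid hormone receptor alpha gene on the opposite strand in other mammals, over 495 bases (chromosome 11, 39970553 to 39971047). The sources used here do not say whether counting used strand, so reads in that stretch may belong to either gene. THRA was at 48.0 ± 3.76 CPM in lambs and 69.1 ± 4.42 CPM in fetuses (SD, n = 3 each). Its log2 difference was -0.53, a smaller decrease than that of NR1D1, and it was called as well (edgeR adjusted p = 0.00714). How much of the NR1D1 decrease lies in the shared stretch was not tested.

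NR1D2 (ENSOARG00000004526, chromosome 26, 40487219 to 40503447), which encodes REV-ERB beta, was at 41.5, 35.3 and 47.4 CPM in lambs and 37.4, 34.8 and 32.5 CPM in fetuses. Lamb library 2 lay among the fetuses, so the stages overlapped. The log2 difference was 0.25 ± 0.14 (95% interval -0.07 to 0.56, adjusted p = 0.173), and 0.72 (adjusted p = 0.00685) when scaled by library totals. The log2 ratio of NR1D1 to NR1D2 was -2.27, -1.70 and -2.41 in lambs, against -0.65, -0.42 and -1.03 in fetuses. It was lower in every lamb, with a mean difference of -1.43 (two-sided exact permutation p = 0.1, again the smallest possible and again chosen after the values were seen).

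DBP (ENSOARG00000011967, chromosome 14, 54318156 to 54323546), an output factor of the PAR bZIP family that binds D-boxes and drives metabolic genes in liver, was at 29.8, 14.6 and 18.3 CPM in lambs and 23.1, 23.5 and 18.2 CPM in fetuses. Lamb libraries 1 and 2 held the highest and the lowest value of all 6. The log2 difference was -0.05 ± 0.26 (95% interval -0.65 to 0.56, adjusted p = 0.897), and 0.44 when scaled by library totals. The gene model of DBP overlaps that of CA11 over 139 bases, and CA11, a carbonic anhydrase-related gene, was at 9.02 ± 1.90 CPM in lambs and 12.4 ± 1.86 CPM in fetuses (SD, n = 3 each; not called).

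**Figure D2:**
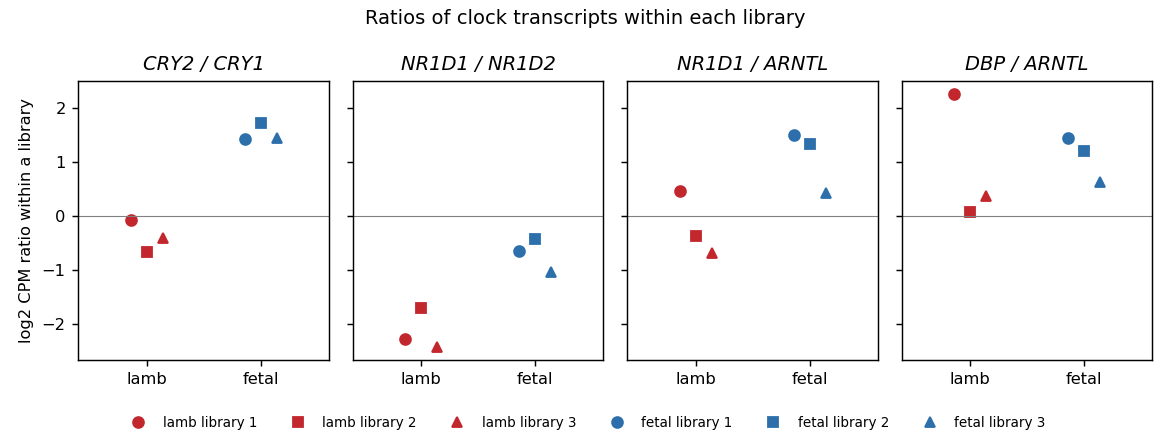
Log2 ratios of CPM between pairs of clock transcripts within each library (vertical axis), for 3 lamb (red) and 3 fetal (blue) libraries with symbols by library number. The CRY2 to CRY1 and NR1D1 to NR1D2 ratios do not overlap between the stages, and among the 4 ratios drawn that of DBP to ARNTL has the widest span in lambs, 2.19.

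The opposite-phase pair NR1D1 and ARNTL was read as a ratio within each library, where the scaling of libraries cancels. It was 0.46, -0.36 and -0.67 on the log2 scale in lambs, against 1.49, 1.34 and 0.43 in fetuses. The means differed by -1.28, but lamb library 1 lay just above fetal library 3, so the stages overlapped. The DBP to ARNTL ratio was 2.26, 0.07 and 0.37 in lambs, against 1.45, 1.20 and 0.63 in fetuses. It spanned 2.19 log2 units among lambs and 0.83 among fetuses. The ARNTL to CLOCK ratio was -1.07, 1.18 and -0.17 in lambs, against -0.97, -0.30 and -0.35 in fetuses, and spanned 2.25 among lambs and 0.68 among fetuses. Lamb library 1 held both the lowest ARNTL and the highest DBP of the 6 libraries. NR1D1, also near opposite phase to ARNTL in adult fat, was not high there. At 8.50 CPM in lamb library 1, it was at its lowest of the 6 libraries too.

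Spread between animals of a stage was uneven among the members. In lambs the coefficient of variation was 43.2% for CLOCK, 40.0% for ARNTL and 38.0% for DBP, against 13.9, 16.8 and 13.6% in fetuses. The other 5 genes lay between 5.91% (PER3) and 14.5% (NR1D2) in lambs, and between 2.02% (CRY2) and 24.2% (NR1D1) in fetuses. The median over all genes tested was 16.3% in lambs and 12.6% in fetuses. The difference in spread between the stages was not tested.

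Levels of different genes can be set side by side only per length, and for this the authors' deposited RPKM (reads relative to gene model length and library total, 1 mean per stage, with no error) was used. In lambs the authors' RPKM means were 29.7 for DBP, 25.1 for NR1D2, 13.4 for CRY2, 11.8 for PER3, 9.86 for CRY1, 9.14 for ARNTL, 6.60 for NR1D1 and 6.22 for CLOCK. In fetuses they were 29.2 for CRY2, 26.1 for DBP, 15.6 for NR1D2, 10.4 for NR1D1, 6.17 for CRY1, 5.58 for ARNTL, 5.55 for CLOCK and 4.01 for PER3. CRY2 thus stood below DBP and NR1D2 in lambs and at the top in fetuses, while PER3 stood next after CRY2 in lambs and last in fetuses. Neighbours such as DBP and NR1D2 in lambs, CRY2 and DBP in fetuses, CRY1 and ARNTL in either stage, and ARNTL and CLOCK in fetuses lay closer than the spread of their counts between animals. For these 8 genes the lamb to fetal ratio of RPKM was 0.842 to 1.06 times that of the counts per library total. The same quotient was 0.371 for ARNTL2 and 1.495 for NPAS2, factors described next. The lamb to fetal ratio of ARNTL2 was 2.83 by the authors' RPKM and 7.64 by counts per library total, and that of NPAS2 was 1.05 by RPKM and 0.705 by counts.

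Factors beside the core loop were counted from a list of 11, of which 10 were found and tested. ARNTL2 and NFIL3 were higher in lambs, BHLHE40 and NPAS2 were lower and 6 were not called, with a median log2 difference of -0.08. The share called was 40.0%, near the 44.7% of all genes tested. ARNTL2, a paralogue that can partner CLOCK, was at 7.56, 5.19 and 10.8 CPM in lambs, against 1.26, 0.736 and 2.09 CPM in fetuses. It rose 5.68-fold, a log2 difference of 2.51 ± 0.42 (edgeR adjusted p = 0.00252), the largest increase in the list. NFIL3, a repressor at the D-boxes that DBP activates, was at 66.3, 85.6 and 77.1 CPM in lambs, against 29.7, 42.9 and 40.0 CPM in fetuses. NFIL3 rose 2.03-fold (log2 difference 1.02 ± 0.17, adjusted p = 0.00232).

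BHLHE40 (also called DEC1), which competes with CLOCK and ARNTL at E-boxes and responds to hypoxia and many hormones, was at 12.2, 22.3 and 29.7 CPM in lambs, against 119.8, 77.5 and 89.8 CPM in fetuses. It fell 4.48-fold (log2 difference -2.16 ± 0.32, edgeR adjusted p = 0.00149). NPAS2, a paralogue of CLOCK, was at 1.43, 3.48 and 2.45 CPM in lambs, against 4.12, 5.22 and 5.25 CPM in fetuses. Its log2 difference was -0.99 ± 0.33 (adjusted p = 0.0445). That call was lost on leaving out any of the fetal libraries, lamb library 1 or lamb library 3, with values between -1.10 and -0.71 and adjusted p between 0.0629 and 0.120. It was also lost with scaling by library totals (-0.51, adjusted p = 0.268).

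RORA, a receptor that activates ARNTL, was at 2.61 ± 0.633 CPM in lambs and 1.56 ± 0.177 CPM in fetuses (log2 difference 0.74 ± 0.29, edgeR adjusted p = 0.0714). RORA, HLF and TEF were called higher with scaling by library totals, at 1.22, 1.04 and 0.64.

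TEF and HLF, the PAR bZIP relatives of DBP, were highest in lamb library 1. TEF was at 48.4, 30.2 and 26.4 CPM in lambs and 32.3, 31.2 and 30.1 CPM in fetuses (log2 difference 0.17 ± 0.22, and -0.14 without lamb library 1). HLF was at 9.78, 5.76 and 8.60 CPM in lambs and 5.98, 5.37 and 4.95 CPM in fetuses (log2 difference 0.57 ± 0.23, adjusted p = 0.0822; 0.76 with adjusted p = 0.0192 without lamb library 2). CIART, a repressor of CLOCK and ARNTL listed as C1orf51, had a log2 difference of -0.53 ± 0.20 (adjusted p = 0.0693), with all lambs below all fetuses. It was called with upper quartile factors (adjusted p = 0.0430) or when genes had to reach 5 CPM in 3 libraries (adjusted p = 0.0477). With scaling by library totals it was -0.03 (adjusted p = 0.905), and without fetal library 2 it was -0.32 (adjusted p = 0.207). BHLHE41, the relative of BHLHE40, had a log2 difference of -0.32 ± 0.32 (adjusted p = 0.443), and 0.11 with scaling by library totals.

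**Figure D3:**
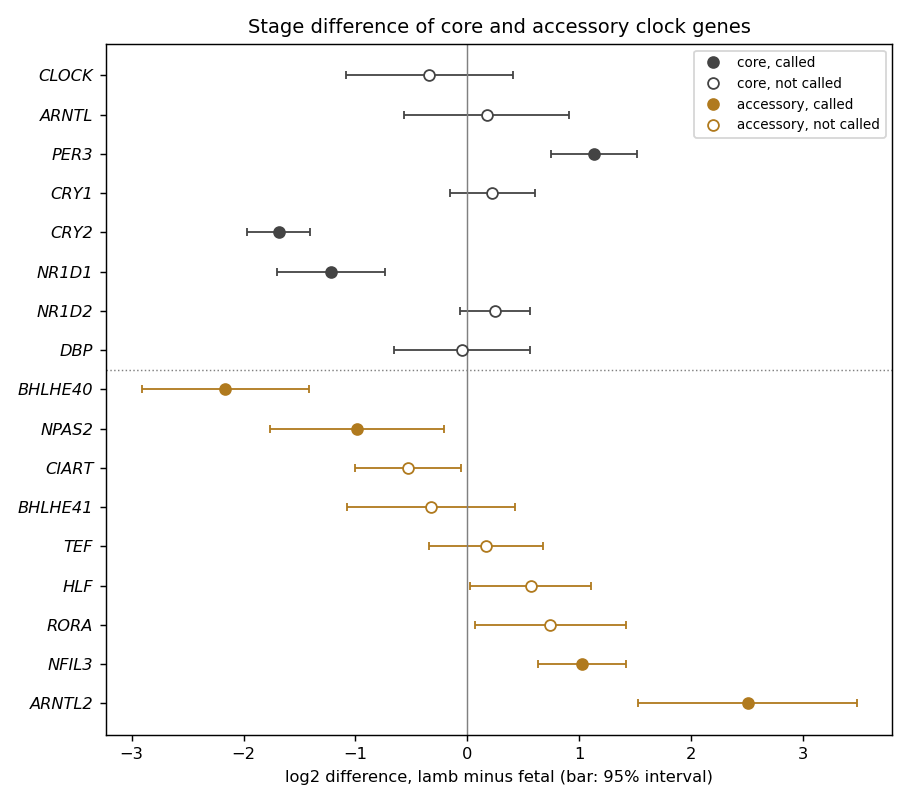
Log2 difference, lamb minus fetal (horizontal axis), of the 8 core clock genes (grey) above 9 accessory factors (orange), with 95% intervals from edgeR. Filled points are called at adjusted p under 0.05, namely PER3, CRY2, NR1D1, BHLHE40, NPAS2, NFIL3 and ARNTL2.

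Kinases, ubiquitin ligases and partners that set the lifetime of PER and CRY proteins were a further list of 15, with 14 found and 13 tested. Of these 6 were higher in lambs, 4 lower and 3 not called, with a median log2 difference of -0.11, and 12 of 13 did not overlap between the stages. Over all genes tested, 22.0% were called higher, 22.7% were called lower and 57.7% did not overlap. PRKAA2, a catalytic subunit of AMP-activated kinase, which marks CRY1 for breakdown in mouse, fell by 1.70 ± 0.18 on the log2 scale. PRKAA1, the other catalytic subunit, named after its value was seen, rose by 0.37 ± 0.11 (edgeR adjusted p = 0.0255). TIMELESS, a replication fork protein that binds CRY in mammals, fell by 1.20 ± 0.19. Casein kinase 1 delta, CSNK1D, which phosphorylates PER, rose by 1.00 ± 0.19. Without fetal library 1, or without fetal library 3, 3 of the 13 were called higher. FBXL21 was not tested, at 0.152 ± 0.136 CPM in lambs and 0.228 ± 0.278 CPM in fetuses.

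Of 14 genes listed as clock-driven outputs in mouse tissues, 11 were found and tested, and 6 were higher in lambs, 1 lower and 4 not called (median log2 difference 0.91), where 22.0% of all genes tested were called higher and 22.7% lower. PDK4, which diverts pyruvate from oxidation, was at 4096 ± 556 CPM in lambs and 109 ± 53.4 CPM in fetuses (log2 difference 5.23 ± 0.41). NOCT, a rhythmic phosphatase of NADP listed as CCRN4L, was at 16.5 ± 8.22 CPM in lambs and 2.41 ± 0.511 CPM in fetuses (2.77 ± 0.38). The gene that was lower was ALAS1, which starts haem synthesis, with a log2 difference of -0.82 ± 0.19 (edgeR adjusted p = 0.00995). SIRT1, a deacetylase of PER2 and ARNTL proteins, rose by 1.28 ± 0.10, and both were named after their values were seen.

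Glucocorticoid is among the signals known to reset peripheral clocks. Of 11 tested genes of glucocorticoid response, 9 were higher in lambs and 2 not called (median log2 difference 1.56), against 22.0% of all genes called higher. FKBP5, a chaperone induced by glucocorticoid, had a log2 difference of 4.75 ± 0.39, and MT2A, listed as MT2, one of 4.76 ± 0.46. PDK4 is in this list too. The receptor gene NR3C1 itself was at 192 ± 38.9 CPM in lambs and 204 ± 5.41 CPM in fetuses and was not called. Of 11 tested immediate early genes, which respond to stimuli and tissue handling within minutes, 10 were higher and 1 not called (median log2 difference 2.25), against the same 22.0%. NR4A3 had a log2 difference of 6.08 ± 0.31, ATF3 of 4.30 ± 0.23 and FOSB of 3.33 ± 0.47. Their part in the clock gene differences was not tested. The glucocorticoid and immediate early lists were chosen with earlier results of these data known, so these counts only describe them.

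Markers of several cell types differed between the stages, where 22.0% of all genes tested were called higher and 22.7% lower. Adipocyte markers, 6 of 6 detected and 5 higher, summed to 28514 to 39529 CPM in lambs and 13326 to 16801 CPM in fetuses. Brown adipocyte markers, 5 of 5 detected and 3 lower, summed to 501 to 638 CPM in lambs and 1289 to 2367 CPM in fetuses. These lists mark the tissue itself. Macrophage markers, 6 of 6 detected and 4 higher, summed to 1160 to 1462 CPM in lambs and 143 to 311 CPM in fetuses. MRC1 held most of the lamb sum, at 993 ± 163 CPM against 57.6 ± 14.1 CPM in fetuses (SD, n = 3 each). CSF1R and C1QB were not called. Urothelium markers, 5 of 5 detected and 5 lower, summed to 0.0988 to 0.300 CPM in lambs and 31.6 to 115 CPM in fetuses. Proliferation markers, 4 of 5 found and 4 lower, summed to 17.5 to 42.1 CPM in lambs and 91.3 to 142 CPM in fetuses. Red cell markers, 4 of 5 found and 3 lower, summed to 29.7 to 55.3 CPM in lambs and 356 to 1268 CPM in fetuses. In the remaining lists, the kidney and adrenal markers tested were not called. Fibroblast markers had 1 higher and 4 not called, and endothelium 1 higher, 1 lower and 2 not called. Smooth muscle had 1 higher and 2 not called, skeletal muscle 1 lower and 1 not called, and lymphocyte 2 higher and 2 not called. In bulk tissue, fewer cells of a type and less RNA per cell cannot be told apart, and the part of these markers in the clock gene differences was not tested.

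Genes whose profile was most like that of PER3 and of CRY2, the largest rise and the largest fall called among the 8, were sought among 7567 named genes at a mean of at least 10 CPM. Likeness was the root mean square difference of centred log2 CPM over the 6 libraries. For PER3 the nearest were TWISTNB (0.09), TOR1AIP1 (0.10), ZFP57 (0.10), GPCPD1 (0.11) and SNX16 (0.12). TWISTNB was at 22.2 ± 2.24 CPM in lambs and 10.02 ± 1.75 CPM in fetuses. For CRY2 the nearest were PIGQ (0.08), TTC38 (0.10), FAT4 (0.11), TMEM161A (0.11) and NHSL2 (0.13). PIGQ was at 17.9 ± 0.802 CPM in lambs and 57.6 ± 1.45 CPM in fetuses. None of the 10 was a listed clock gene. Their log2 differences between the stages were 0.99 to 1.21 for the PER3 set and -1.69 to -1.49 for the CRY2 set. Likeness over 2 stages thus largely reflects a like stage difference, and shared regulation was not tested.

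**Figure D4:**
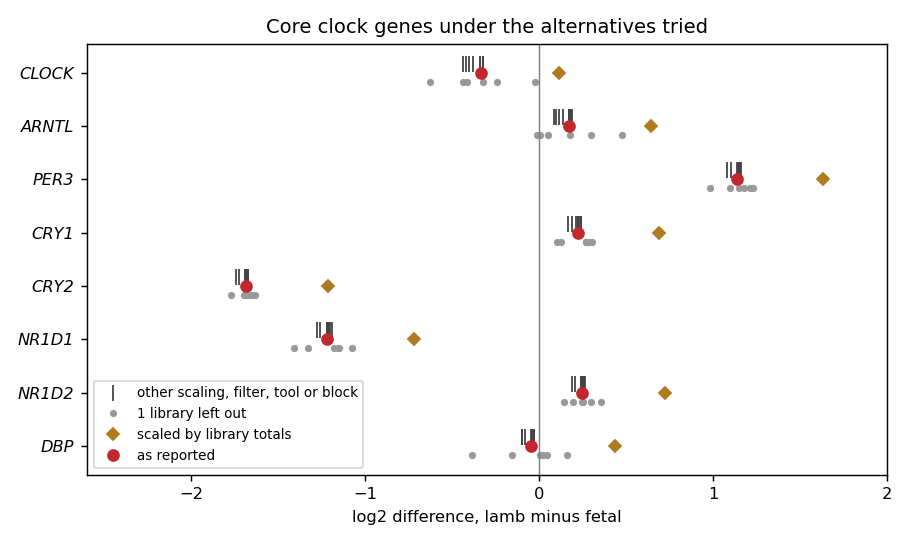
Log2 difference, lamb minus fetal (horizontal axis), of the 8 core clock genes as reported (red), scaled by library totals (orange), under the other scalings, filters, tools and the block (grey ticks) and with 1 library left out (grey dots). PER3 stays above 0 and CRY2 and NR1D1 below 0 throughout, while CLOCK, ARNTL and DBP take both signs.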

How the data were processed

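Per the design text deposited with the series, CLC Genomics Workbench 7.0 placed reads on Ensembl models (release 74) of Oar v3.1, a sheep assembly, and the counts per gene they deposited are whole numbers. RPKM stage means, the signed fold score and the p-values of the authors' own edgeR comparison come from the deposited full table. How reads were filtered, whether strand was used and where multiply mapping reads went is not given in the sources used. Tissue was taken within 10 minutes of euthanasia and RNA integrity was above 9, per the labels' protocols. The 12 per-library RPKM columns were left out, as 1 sample name stands there more than once.

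Counts were fitted in R 4.3.3 with edgeR 4.0.16 (filterByExpr, TMM, quasi-likelihood F test, no covariates) over 13624 genes, and p-values were adjusted by Benjamini-Hochberg. TMM factors were 1.16 to 1.21 in lamb and 0.723 to 0.956 in fetal libraries. The SE is the difference divided by the root of F. Log2 ratios used log2 CPM with a prior count of 2. Gene lists, gene names and the members were chosen with earlier results of these data known. Older symbols were matched through the RefSeq table of synonyms. Every core gene found and every accessory gene tested is named, except that some results for single listed genes are not reported here. From each other list called genes among the 3 largest differences are named, with any gene beyond them chosen after its values were seen. Alternatives included DESeq2 1.42.0 and limma 3.58.1. Promoter and protein sequences were not used here.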

Additional observations from a re-analysis of the deposited data

How the results depend on the processing

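The calls of PER3, CRY2 and NR1D1 held in direction and at adjusted p under 0.05 in all 16 alternatives, with log2 differences of 0.98 to 1.63, -1.77 to -1.22 and -1.41 to -0.72. Scaling by library totals alone was the setting that moved most: it shifted the median of all genes by 0.47, called 5598 genes higher and 1459 lower (79.3% of calls higher, against 49.3% with TMM) and brought CRY1 (0.69) and NR1D2 (0.72) past the threshold, so that 3 core genes were higher. CLOCK (0.11), DBP (0.44) and BHLHE41 (0.11) then took the opposite sign. It also gave 5 accessory factors higher and 1 lower, 2 turnover genes lower and 0 output genes lower (edgeR; 0 at an unadjusted p under 0.05). With no filter beyond 1 count, 1 accessory factor was lower. Output genes called lower numbered 2 with upper quartile factors, the DESeq2 Wald test, limma-voom or at least 5 CPM in 3 libraries. On leaving out 1 library, ARNTL ranged from -0.012 to 0.48, DBP from -0.39 to 0.16 and TEF from -0.14 to 0.33. Accessory factors called lower then numbered 1 to 2, turnover genes called higher 3 to 6 and output genes called lower 1 to 2. The causes of these changes were not tested. Leaving out a library or changing the filter also changed what entered the fit. Scaling by library totals kept the same 13624 genes.

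Same-numbered libraries did not deviate together (correlations of 0.00327, -0.116 and 0.0460), so the numbers were not taken as pairs. With the replicate number as a block, 2598 genes were higher and 2755 lower, and PER3, CRY2 and NR1D1 were at 1.15, -1.69 and -1.20. The 3 libraries per stage limit precision: the 95% interval was -0.56 to 0.91 for ARNTL and -1.97 to -1.41 for CRY2.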
